A study of Mus musculus with 18 samples.

Results

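Oxidative phosphorylation is the process by which mitochondria turn the energy of nutrients into ATP, and its machinery is built of protein complexes coded largely by nuclear genes. The genes described here are those whose symbols start with Nduf, Uqcr, Cox4, Cox5, Cox6, Cox7, Cox8 or Atp5, together with Sdha, Sdhb, Sdhc, Sdhd and Cycs. On the arrays used, 91 of the 18193 genes with a probe set of their own met this rule, which chooses genes by name and by no measured change. By complex they comprised 34 genes of complex I, 4 of complex II, 8 of complex III, 1 for cytochrome c, 19 of complex IV, 17 of complex V (ATP synthase) and 8 complex I assembly factors, whose symbols start with Ndufaf and which are not subunits of the finished enzyme.

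The study measured liver and kidney of male C57BL6 mice after D-(+)-galactosamine (GalN), a sugar amine that is toxic to hepatocytes. The 6 groups of 3 arrays each were liver 24 h after 4.5 g/kg GalN given intraperitoneally, liver 48 h after the same dose, kidney at the same 2 times, and sham liver and sham kidney taken 24 h after saline. All organs were perfused in place before RNA was taken, and no sham group at 48 h was analysed here, so the 48 h arrays were also set against the 24 h sham arrays. The arrays of a group are called A, B and C, and p-values measure the spread between these arrays. Whether equal letters in liver and kidney mark the same mouse is not stated. Values are log2 gcRMA values, in which 1 unit is a doubling of signal.

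As background, complex I takes electrons from NADH, and complex II, which is also the succinate dehydrogenase of the tricarboxylic acid (TCA) cycle, takes them from succinate. Both pass them through ubiquinone to complex III, from which cytochrome c carries them to complex IV, where oxygen is reduced. The proton gradient built on the way drives ATP synthase. Hepatocytes and the tubule cells of the kidney are both rich in mitochondria, and the proximal tubule depends on oxidative metabolism for its transport work.

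The labels of the organs went with their marker genes. The mean level of 14 hepatocyte genes lay between 14.06 and 14.68 on the liver arrays and between 6.57 and 7.21 on the kidney arrays. The mean of 12 proximal tubule genes lay between 13.77 and 14.10 on the kidney arrays and between 4.90 and 5.39 on the liver arrays. In tissue RNA, fewer cells of a type and less RNA per cell cannot be told apart.

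Array C of the 48 h liver group stood apart from arrays A and B, and the counts of members called in 48 h liver are therefore given with and without it. The mean over the subunit genes with a mean level above 5 was 13.38 on array C, against 12.59 on array A and 12.59 on array B. Of 74 members with a mean level above 10, 70 read higher on array C than the mean of A and B, by a median of 0.71, whereas 2182 genes of the whole array with a mean above 10 had a median difference of 0.01. For 34 ribosomal protein genes (Rpl and Rps symbols) the median difference was 0.38, with 32 higher. The signal gap between the 3′ and 5′ probe sets for actin, a sign of RNA length, was 2.56 on array C and 1.48 to 1.95 on the other 8 liver arrays, and the same gap for Gapdh was 0.81, against 0.21 to 0.35. Their part in the result was not tested.

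**Figure D1:**
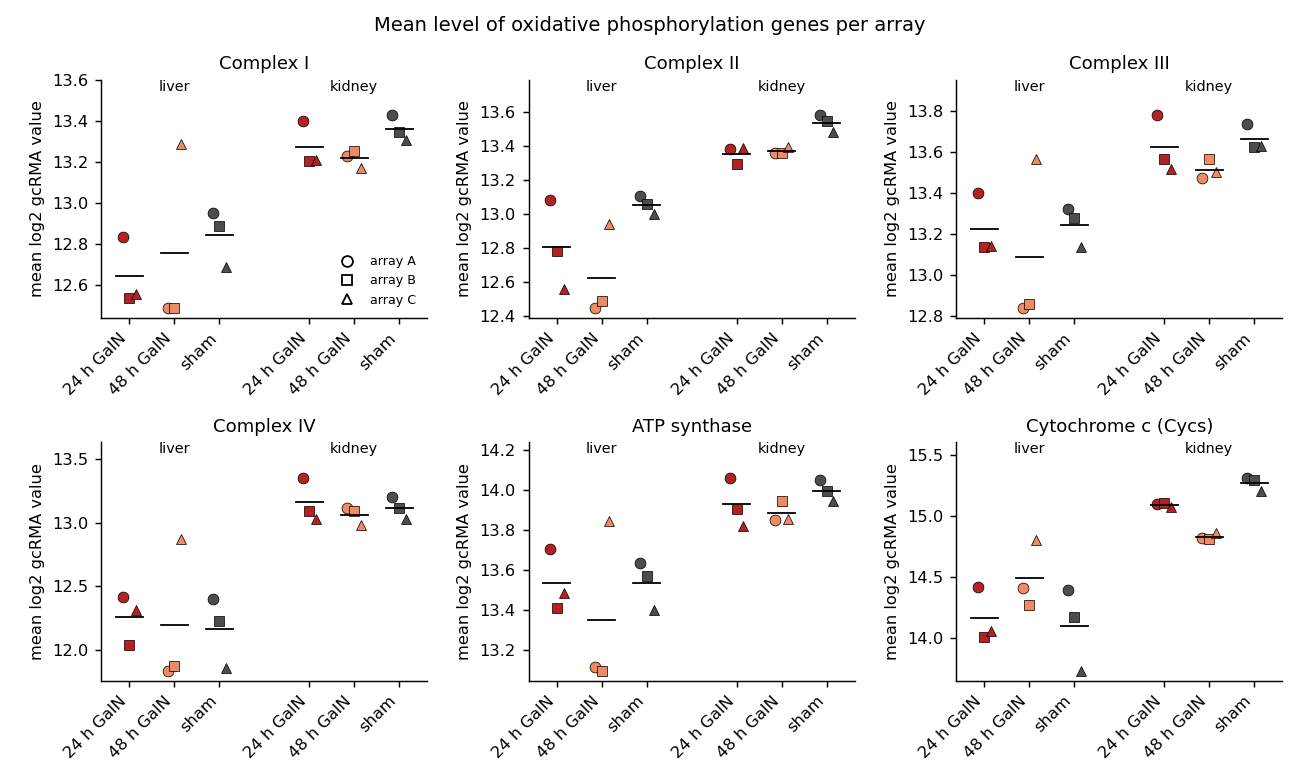
Mean log2 gcRMA value (vertical axis) of the members of each complex with a mean level above 5, on each of the 18 arrays, by group (horizontal axis), with Cycs in the last panel; marker shapes give the array letter and bars the mean of 3 arrays. In 48 h liver, array C of complex I read 13.29, against 12.49 and 12.49 for A and B, while Cycs in 48 h kidney read 14.81 to 14.86, below the 15.20 to 15.31 of sham kidney.

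Most members gave strong readings. Of the 91, 74 had a mean above 10 over the 18 arrays and 67 a mean above 12. In sham liver the highest and lowest readings within a complex were 14.69 for Ndufs8 and 2.21 for Ndufb4 in complex I, 13.61 for Sdhb and 12.71 for Sdhd in complex II, 14.70 for Uqcrb and 11.86 for Uqcr10 in complex III, 15.21 for Cox5a and 2.21 for Cox7b2 in complex IV, and 15.22 for Atp5pb and 11.12 for Atp5mpl in ATP synthase. Such readings depend on the probe set and do not order the transcripts by abundance.

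The lowest value in the table, 2.21, serves as its floor. Ndufb4, Cox4i2, Cox7b2, Cox7c, Cox8c and Ndufa4l2 lay less than 1 above it on all 18 arrays. Cox4i2 (a lung isoform), Cox7b2 and Cox8c (testis isoforms) and Ndufa4l2 (induced by low oxygen) are tissue-restricted or induced genes. Ndufb4 and Cox7c code ordinary subunits, so for these 2 the low reading is that of the only probe set used and says nothing of the transcript's level.

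The promoters of genes the results turn on are shown first. RefSeq (build GRCm38.p6) gave a start window for 75 of the 91 members, and the 250 bases before the start were searched on both strands for 6 motifs of factors known from nuclear genes of the respiratory chain or from promoters at large. The NRF1 motif GCGCATGC was present in 9 of the 75 (12%), against 2.32% of all 27025 promoters and 3.56% of those of 14453 genes on the array. The ETS motif CCGGAAG, to which GABP binds, was present in 13 (17.3%), against 7.05% of all promoters and 10.6% of array genes. The SP1 motif GGGGCGGG was present in 17 members (22.7%), against 15.1% and 23.7%. The YY1 motif AAGATGGC was present in 0 members, against 1.59% and 1.77%. The ERR motif TCAAGGTC was present in 1 member, Atp5g3, against 0.907% and 0.851%. The TATA box TATAAA was present in 7 members (9.33%), against 13.0% and 9.02%. Median GC content was 57.6% in the members and 57.6% over array genes, so the share among array genes is the nearer background. A match describes letters and is not a shown binding site.

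The 150 bases that end just before the start RefSeq's table gives are printed 5′ to 3′ on the strand of the gene, with any of the 6 motifs in capitals. Shown are Sdha, which fell in liver at 48 h (chr13:74350241-74350390, minus strand), Cycs, which fell in kidney (chr6:50566570-50566719, minus strand), and Cox7a1, the member with the widest gap between the organs (chr7:30184021-30184170, plus strand).
Sdha: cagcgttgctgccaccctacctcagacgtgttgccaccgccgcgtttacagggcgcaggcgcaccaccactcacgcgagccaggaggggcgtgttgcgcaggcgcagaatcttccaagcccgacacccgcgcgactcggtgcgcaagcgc
Cycs: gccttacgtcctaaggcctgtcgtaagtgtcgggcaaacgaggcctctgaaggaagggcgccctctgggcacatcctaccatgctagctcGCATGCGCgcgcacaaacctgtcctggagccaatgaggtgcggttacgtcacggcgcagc
Cox7a1: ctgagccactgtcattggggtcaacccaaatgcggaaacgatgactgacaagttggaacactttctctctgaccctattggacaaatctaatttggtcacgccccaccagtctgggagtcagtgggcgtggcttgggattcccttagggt
In these stretches Cycs had the NRF1 letters, on the opposite strand, 60 bases before it. Sdha and Cox7a1 had none of the 6 motifs.

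In liver at 24 h, a smaller share of the members than of all genes was called. Of 84 members tested, 1 was higher and 4 were lower than in sham liver (limma, Benjamini-Hochberg adjusted p under 0.05 over all 12071 genes tested), a share of 5.95%, where 32.9% of all genes were called (17.9% higher and 15% lower). With all 18 arrays in 1 fit 14 members were called (16.7%, against 43.9% of all genes), and with array weights, which let arrays count unequally, 25 (29.8%, against 49% of all genes). The median change was -0.05 over the members and 0.00 over all genes. By complex the median was -0.16 in complex I, -0.25 in complex II, -0.02 in complex III, 0.12 in complex IV and 0.02 in ATP synthase. All 3 GalN arrays lay above all 3 sham arrays for 7 members and below them for 13, where 27.3% and 22.5% of all genes did. The balance of signs depended on the scaling: 46 members were negative in the values as deposited, 33 after quantile normalization and 67 after scaling each array to its 75th percentile.

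Ndufs7, the subunit whose iron-sulfur cluster passes electrons to ubiquinone, gave the largest called fall among subunits. It read 11.51, 11.64 and 11.52 in 24 h GalN liver, against 12.73, 12.56 and 12.42 in sham liver. All GalN arrays lay below all sham arrays. It fell by 1.01 on the log2 scale (SE 0.16, 2.02-fold, adjusted p = 0.00361, limma), and a second probe set for it fell by 1.16. Ndufs1, the large iron-sulfur subunit of the arm that binds NADH, read 11.17, 10.87 and 10.80 in 24 h GalN liver, against 11.54, 11.46 and 11.42 in sham liver, without overlap. It fell by 0.53 (SE 0.12, adjusted p = 0.0124, limma). Both calls were kept in all 9 fits that left out 1 array.

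The other 3 calls in liver at 24 h were less stable. Atp5g3, 1 of the 3 genes for subunit c of the rotor ring of ATP synthase, averaged 14.25 ± 0.08 in 24 h GalN liver and 14.61 ± 0.07 in sham liver (SD, n = 3 each). It fell by 0.36 (adjusted p = 0.0443, limma), and the call held in 2 of the 9 fits that left out 1 array (adjusted p up to 0.130). Ndufaf6, needed for early steps of complex I assembly, read 7.96, 7.30 and 6.87 in 24 h GalN liver, against 9.27, 9.24 and 8.83 in sham liver. It fell by 1.74 (adjusted p = 0.0427, limma), and the call held in 4 of 9 such fits (up to 0.130). Ndufaf4, which acts with Ndufaf3 in assembly, was the member that rose, with 11.11, 11.51 and 11.46 in 24 h GalN liver, against 10.67, 10.52 and 10.24 in sham liver. Its change was 0.88 (SE 0.23, adjusted p = 0.0229, limma), its call held in 5 of 9 such fits, and a second probe set for Ndufaf4 changed by -0.08.

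Leaving out array C of the 48 h group, which enters this fit through the shared spread, raised the calls at 24 h to 3 higher and 9 lower, where 38.8% of all genes were then called (21% higher and 17.7% lower). The calls gained included 4 further complex I genes that were lower: Ndufb3, Ndufs4, Ndufv2 and Ndufc2. Their changes were -0.78, -0.70, -0.54 and -0.40. The complex I subunit Ndufa3 (0.26) and Cox7a2l (0.50) were then called higher. The count fell to 2, both lower, without GalN array B, GalN array C or sham array B, and to 3 without sham array A. In these fits 27.0%, 25.3%, 23.6% and 26.4% of all genes were called, in that order.

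**Figure D2:**
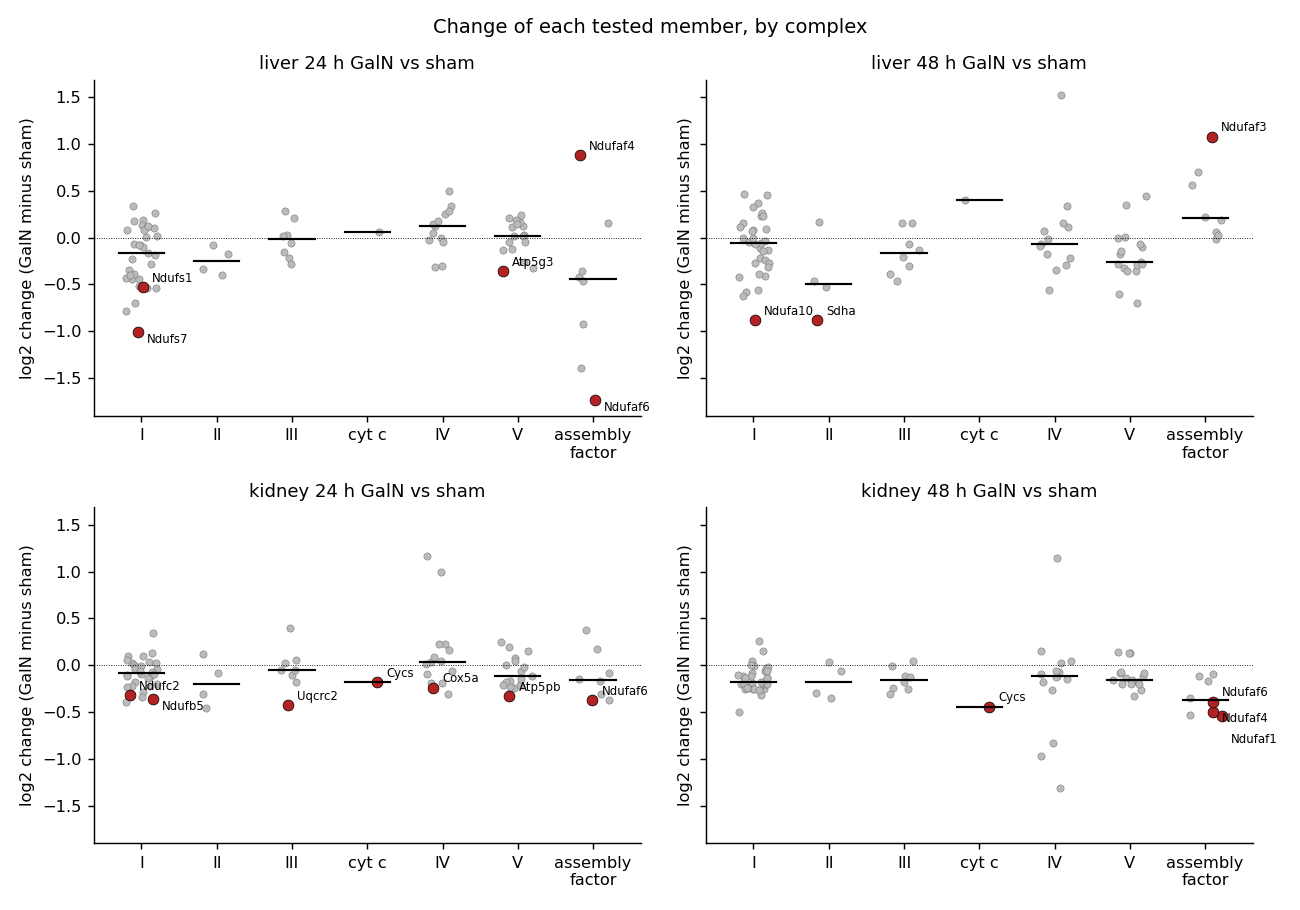
Log2 change, GalN minus sham (vertical axis), of every tested member by complex (horizontal axis) in liver and kidney at 24 h and 48 h; red points with names passed the test, grey points did not, and bars mark the median of the complex. The members called in liver at 24 h range from -1.74 for Ndufaf6 to 0.88 for Ndufaf4, while those in kidney at 48 h lie between -0.54 and -0.39.

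In liver at 48 h the count depended on array C and on the fit. With all 3 arrays, 1 member was higher and 2 were lower than in sham liver, where 10.2% of all genes were called (6.24% higher and 3.94% lower), and the median change was -0.07. All 3 GalN arrays lay above all 3 sham arrays for 4 members and below them for 12, where 17.7% and 10.8% of all genes did. Fits that did not drop array C also gave higher counts. All 18 arrays in 1 fit gave 18 members, a share near that of all genes (21.4%, against 20.8%). Array weights gave 48 (57.1%, against 39.2%), but they can count an array that stands apart for less, so this fit may not keep array C in full. Without array C, 1 member was higher and 24 were lower of 84 tested, where 13.3% of all genes were called (8.4% higher and 4.93% lower). Then 70 of the 84 members were negative, with a median of -0.34, against a median of 0.04 over all genes. Leaving out array A of the 24 h group, which enters through the shared spread, gave 1 higher and 5 lower, where 9.45% of all genes were called. With another scaling added after the data were seen, the count without array C was 1 higher and 19 lower after quantile normalization (median -0.28, 70 negative) and 1 higher and 39 lower after 75th percentile scaling (median -0.54, 77 negative, where the median of all genes was itself -0.16).

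Most members read higher on array C than on arrays A and B, so leaving it out by itself lowers their changes. The 24 genes lower without array C were spread over the complexes. They were 8 of 33 tested in complex I, 2 of 4 in complex II, 3 of 8 in complex III, 4 of 13 in complex IV and 7 of 17 in ATP synthase, while 0 of the 8 assembly factors was lower. The largest falls were those of Atp5g1 (-1.04), Sdha (-0.98), Ndufv3 (-0.92), Ndufs8 (-0.87), Ndufa13 (-0.79), Sdhb (-0.72), Uqcrq (-0.70) and Uqcr11 (-0.69). Atp5g1, another gene for subunit c, shows how the array bears on the call, with 11.75, 11.76 and 12.77 in 48 h GalN liver on arrays A, B and C, against 12.98, 12.88 and 12.53 in sham liver. Arrays A and B lay below every sham array and array C did not. Its change was -0.70 with all arrays (adjusted p = 0.203, limma) and -1.04 without array C (adjusted p = 0.0234, limma).

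**Figure D3:**
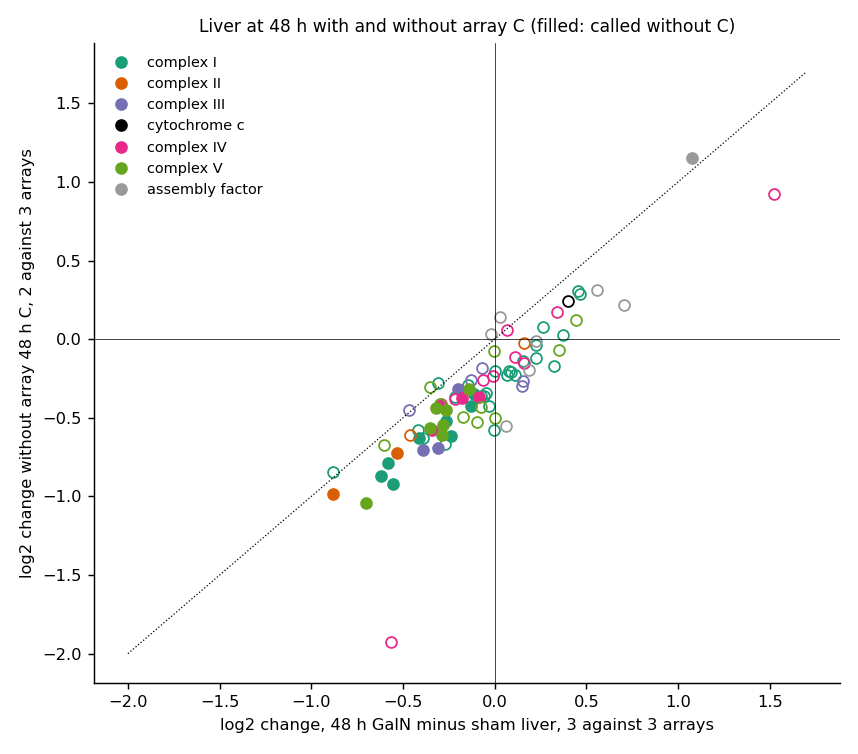
Log2 change of each tested member in liver, 48 h GalN minus sham, with all arrays (horizontal axis) and without array C of the GalN group (vertical axis); colours give the complex, filled points passed the test without array C, and the dotted line marks equal values. Most points lie below the line, and the median of the 84 members is -0.07 with array C and -0.34 without it.

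Sdha and Ndufaf3 changed in 48 h liver with and without array C. Sdha, the flavoprotein of complex II that oxidises succinate, read 11.82, 12.10 and 12.27 in 48 h GalN liver, against 12.82, 12.92 and 13.09 in sham liver. The groups did not overlap, array C included. Sdha fell by 0.88 (SE 0.13, 1.84-fold, adjusted p = 0.0104, limma), a second probe set fell by 0.73, and the call was kept in all 9 fits that left out 1 array. Sdhb, the iron-sulfur subunit, averaged 13.08 ± 0.33 in 48 h GalN liver and 13.61 ± 0.11 in sham liver. Sdhc, a membrane anchor, averaged 12.49 ± 0.26 and 12.95 ± 0.09, and Sdhd, the other anchor, 12.87 ± 0.33 and 12.71 ± 0.16, in the same order (SD, n = 3 each). These 3 did not pass the test with all arrays, and Sdhb alone of them passed it without array C.

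Ndufa10, an accessory subunit of the membrane arm of complex I, read 11.84, 11.73 and 11.68 in 48 h GalN liver, against 12.61, 12.80 and 12.47 in sham liver. It fell by 0.88 (SE 0.18, adjusted p = 0.0279, limma), with no overlap and with array C as low as the others. The call held in 3 of the 9 fits that left out 1 array (adjusted p up to 0.0987), and it was lost without array C. Ndufaf3, which works early in complex I assembly, was the member that rose: it read 9.11, 9.16 and 8.92 in 48 h GalN liver, against 8.27, 7.92 and 7.78 in sham liver. Its rise was 1.08 (SE 0.16, 2.11-fold, adjusted p = 0.0107, limma), and it was kept in all 9 such fits.

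Within liver, 48 h against 24 h gave 5 members higher and 5 lower, where 27.8% of all genes were called (14.6% higher and 13.1% lower). The higher ones were 3 assembly factors and 2 complex I subunits. Ndufaf5, which modifies Ndufs7 during assembly, was higher by 2.10, Ndufaf6 by 1.80, Ndufs7 by 1.48, Ndufaf3 by 1.43 and Ndufb3 by 0.94. Ndufs7 read 12.80, 12.92 and 13.39 at 48 h, against 11.51, 11.64 and 11.52 at 24 h, so that every 48 h array also lay above the sham arrays, although the change against sham, 0.47, did not pass the test. The lower ones were Ndufa13 (-0.72), Ndufa10 (-0.72), Sdha (-0.71), Ndufa3 (-0.67) and Atp5b, the catalytic beta subunit of ATP synthase (-0.37). The calls of Ndufs7, Ndufaf3 and Sdha were kept in all 9 fits that left out 1 array, and those of the other 7 were not. Without array C of the 48 h group there were 5 higher and 31 lower, with 28.9% of all genes called. The count was 6 without 24 h array B, 5 without 24 h array C and 5 without 48 h array A. In these fits 22.5%, 21.5% and 22.3% of all genes were called, in that order.

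**Figure D4:**
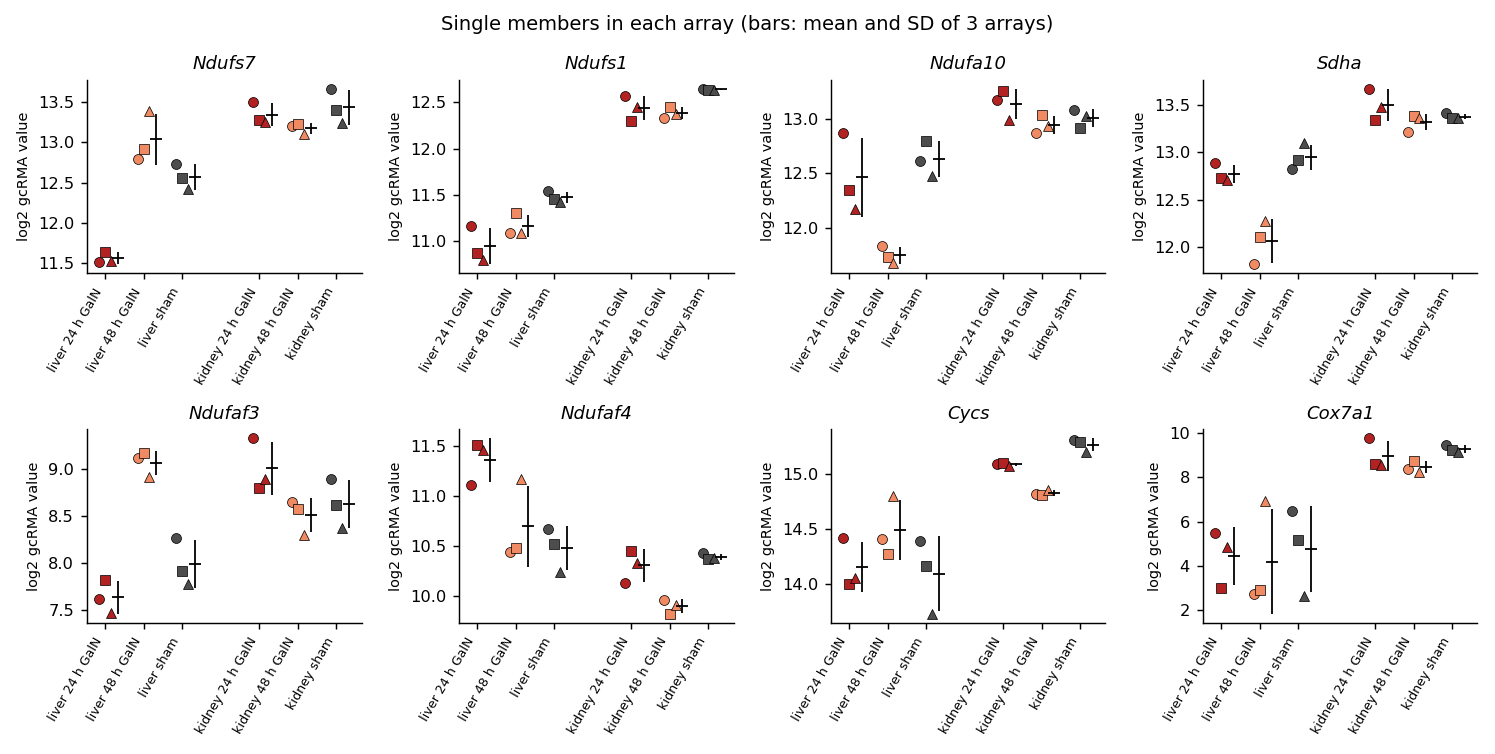
Log2 gcRMA value (vertical axis) of 8 members on each array, by organ and group (horizontal axis); marker shapes give the array letter (A circle, B square, C triangle) and the bars beside them the mean and SD of 3 arrays. Ndufs7 in liver reads 11.51 to 11.64 at 24 h and 12.80 to 13.39 at 48 h, and 12.42 to 12.73 in sham, while in kidney it reads 13.10 to 13.67 over all groups.

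Markers of liver cell types were read beside these changes. Of all genes, 32.9% were called at 24 h (17.9% higher and 15% lower) and 10.2% at 48 h (6.24% and 3.94%). At 24 h, 7 of 11 macrophage genes were higher (63.6%) and 0 lower, with a mean level of 9.95 to 10.35 in GalN liver, against 8.19 to 9.23 in sham liver. Of 11 endothelial genes 7 were higher (63.6%), and of 8 stellate cell and myofibroblast genes 2 were (25%). At 48 h, 3 of the 11 macrophage genes were higher (27.3%, and 4 genes without array C), with a mean level of 9.64 to 9.92. One endothelial gene was then higher (9.09%, and 0 genes without array C), and 0 stellate genes were. Of 14 hepatocyte genes, 4 were lower at 24 h (28.6%, and 7 genes without array C of the 48 h group) and 5 at 48 h (35.7%). Their mean level was 14.08 to 14.24 at 24 h and 14.06 to 14.36 at 48 h, against 14.49 to 14.68 in sham liver. The part of these cell types in the result was not tested.

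In kidney at 24 h, 7 members were lower than in sham kidney and 0 were higher of 86 tested, or 8.14%, where 5.31% of all 12003 genes were called (2.21% higher and 3.1% lower). Among the genes with a mean above 10, 9.99% were called, so the members did not exceed the share at their signal level. By an unadjusted p under 0.05, limma gave 23 members (26.7%), against 23.8% of all genes and 37.6% of the 2182 genes with a mean above 10. The share is near that of all genes and below that of the genes with a mean above 10. The changes were small. Uqcrc2, a core protein of complex III, read 14.89, 14.84 and 14.82 in 24 h GalN kidney, against 15.39, 15.27 and 15.18 in sham kidney, and fell by 0.43 (SE 0.07, adjusted p = 0.0279, limma). Atp5pb, subunit b of the stator stalk of ATP synthase, read 15.46, 15.38 and 15.39 in 24 h GalN kidney, against 15.81, 15.71 and 15.70 in sham kidney, and fell by 0.33 (adjusted p = 0.0207, limma). In both genes the groups did not overlap. A second probe set for Atp5pb changed by 0.03, the other way.

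The other 5 were Ndufaf6 (-0.37), the complex I accessory subunits Ndufb5 (-0.36) and Ndufc2 (-0.32, and 0.05 with another probe set), Cox5a of complex IV (-0.24) and Cycs (-0.18). None of the 7 calls held in all 9 fits that left out 1 array: 0 members were called without GalN array B, sham array A or sham array B, and 2 without array B of the 48 h group. In these fits 0.96%, 0.911%, 0.125% and 2.2% of all genes were called, in that order. The calls of Atp5pb and Ndufb5 held in all but the first 3 of these fits (adjusted p up to 0.0664 and 0.0831), and that of Cycs held in 1 of 9 (up to 0.155). In all, 23 members had all 3 GalN arrays below all 3 sham arrays, where 14.3% of all genes did. After quantile normalization 3 of the members were called, all lower, and 44 of the 86 were negative, against 57 in the values as deposited.

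In kidney at 48 h, 4 members were lower and 0 higher of 86 tested, or 4.65%, where 2.69% of all genes were called (1.29% higher and 1.4% lower). Among the genes with a mean above 10, 4.72% were called, so the share of members called is near that background. By an unadjusted p under 0.05, limma gave 25 members (29.1%), against 19.4% of all genes and 31.5% of the genes with a mean above 10. Cycs, the electron carrier that is also released from mitochondria in apoptosis, read 14.82, 14.81 and 14.86 in 48 h GalN kidney, against 15.31, 15.29 and 15.20 in sham kidney, with no overlap. It fell by 0.44 (SE 0.04, 1.36-fold, adjusted p = 0.00787, limma). Its other 2 probe sets with high readings fell by 0.80 and 0.32, and the call was kept in all 9 fits that left out 1 array. Cycs was also the member called between 48 h and 24 h in kidney, with a change of -0.26 (adjusted p = 0.0344, limma), where 1.61% of all genes were called (0.958% higher and 0.65% lower). That call held in 1 of 9 fits that left out 1 array, the one without sham array C.

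The other 3 were assembly factors: Ndufaf1 (-0.54), Ndufaf4 (-0.49) and Ndufaf6 (-0.39). Ndufaf1, an assembly factor for the membrane arm, read 9.24, 9.41 and 9.11 in 48 h GalN kidney, against 9.88, 9.70 and 9.79 in sham kidney. The count was 1 without any 1 of the 48 h arrays, sham array A or sham array B, and 2 without sham array C or array C of the 24 h group. Of all genes, 0.242% to 1.4% were called in the former fits and 1.51% and 2.24% in the latter. The 3 calls held in 2, 2 and 3 of the 9 fits that left out 1 array (adjusted p up to 0.115, 0.122 and 0.113).

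Most members read slightly lower in 48 h kidney without passing the test singly. Of the 86, 73 were negative (71 after quantile normalization and 71 after 75th percentile scaling), with a median of -0.15. Of the 2182 genes with a mean above 10, 1367 were negative, with a median of -0.08. All 3 GalN arrays lay below all 3 sham arrays for 48 members, where 15.6% of all genes did, a share not counted for the genes with a mean above 10. By complex the 48 were 19 of 33 tested genes in complex I, 1 of 4 in complex II, 4 of 8 in complex III, 7 of 15 in complex IV, 11 of 17 in ATP synthase, Cycs, and 5 of 8 assembly factors. The medians were -0.18, -0.18, -0.15, -0.12, -0.15, -0.44 and -0.37, in the same order. These genes sit on the same arrays and are not independent replicates. In kidney 0 of 10 macrophage genes were called at either time. Of 10 genes of the distal tubule and collecting duct, 2 were higher at 24 h (20%, against 5.31% of all genes called) and 0 were called at 48 h. Their mean level was 9.28 to 9.57 at 24 h and 9.01 to 9.38 at 48 h, against 8.45 to 8.84 in sham kidney. Of the 12 proximal tubule genes, 1 was higher at 24 h (8.33%). At 48 h 2 of them were higher and 2 lower (33.3%, against 2.69% of all genes called). Their mean level was 13.92 to 14.04 in 48 h GalN kidney, against 13.85 to 14.10 in sham kidney. The part of these cell types in the kidney results was not tested.

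The difference between the organs in their response to GalN was tested directly in 1 fit of all arrays, as the kidney change minus the liver change. At 24 h, 2 members were higher by this measure and 1 was lower of 86 tested, where 30.3% of all 12467 genes were called (13.8% higher and 16.5% lower). There were 7 higher and 5 lower without array C of 48 h liver, where 35.8% of all genes were called. Without array A of 24 h liver there were 7 higher and 1 lower, where 29.7% of all genes were called. At 48 h, 2 were higher and 4 lower, where 13.1% were called (4.68% higher and 8.41% lower), and without array C of the liver group 18 were higher and 4 lower, where 16.8% were called (5.72% higher and 11% lower). One of the 4 lower, Cox6a2, lay near the floor on all 9 liver arrays, so that no liver response could be measured for it. These comparisons rest on the same sham arrays as those above. Ndufs7 changed by -0.09 in kidney and -1.01 in liver at 24 h, a difference of 0.92 (SE 0.21, adjusted p = 0.00404, limma). Sdha changed by -0.06 in kidney and -0.88 in liver at 48 h, a difference of 0.82 (SE 0.16, adjusted p = 0.00511, limma), and of 0.93 without liver array C. Cycs changed by -0.44 in kidney and 0.40 in liver at 48 h, a difference of -0.84 (SE 0.23, adjusted p = 0.0254, limma). The call for Cycs was lost without kidney 48 h array B, sham kidney array A or sham kidney array B (adjusted p up to 0.0594), and without liver array C the difference was -0.68 (adjusted p = 0.0405, limma).

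In the main fits, more members were called between sham kidney and sham liver than between GalN and sham in either organ. The former count comes from 1 fit of 18 arrays and the latter from fits of 9 arrays. Of 86 members tested, 48 were higher and 1 was lower in sham kidney than in sham liver, or 57%, where 47.6% of all genes were called (28.7% higher and 18.9% lower). Of the 2182 genes with a mean above 10, 60.6% were called (739 higher and 583 lower), so the share of members called is near that background. The median difference was 0.51 over the members, 0.05 over all genes and 0.11 over the genes with a mean above 10. By complex the called members higher in kidney were 18 of 33 in complex I, 3 of 4 in complex II, 5 of 8 in complex III, 10 of 15 in complex IV, 9 of 17 in ATP synthase, Cycs, and 2 of 8 assembly factors. The count depended on the scaling. Setting each array to the same 75th percentile moved the median of all genes to -0.34, and then 10 members were higher and 2 lower (14%, against 60% of all genes called), with a member median of 0.12. After quantile normalization 56 were higher and 1 lower (66.3%, against 52.6% of all genes called).

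**Figure D5:**
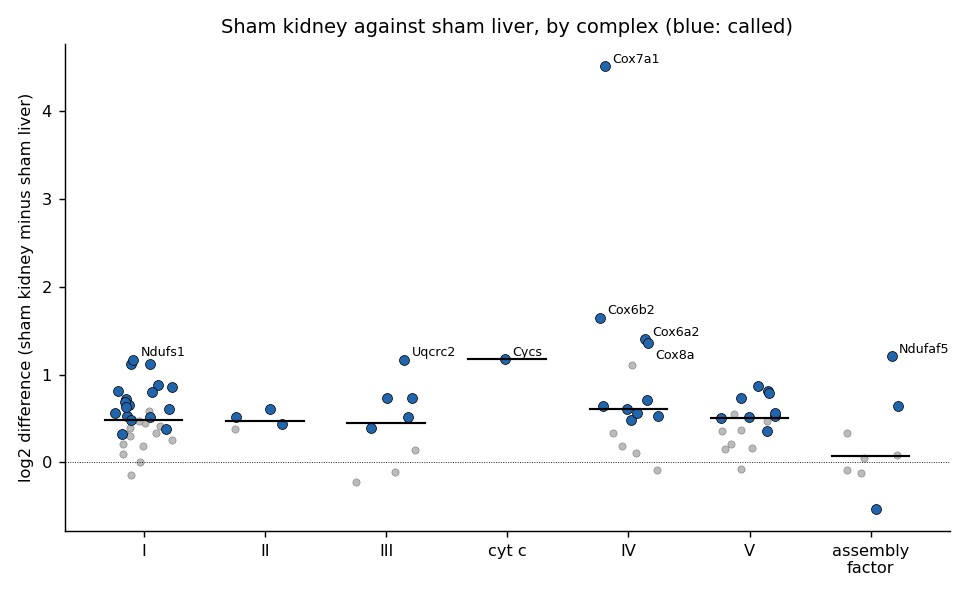
Log2 difference, sham kidney minus sham liver (vertical axis), of each tested member by complex (horizontal axis); blue points passed the test, grey points did not, and bars mark the median of the complex. Cox7a1 stands highest at 4.51, and the medians of complexes I to V lie between 0.45 and 0.61.

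The largest gaps were among isoforms of complex IV. Cox7a1, the heart and muscle isoform of subunit 7a, read 9.45, 9.21 and 9.14 in sham kidney, against 6.46, 5.15 and 2.65 in sham liver, where array C was near the floor. It was at least 22.8-fold higher in sham kidney (adjusted p = 0.00265, limma), and 11-fold higher without sham liver array C (adjusted p = 0.0155, limma). Cox7a2, the isoform found in most tissues, differed by 0.33 (adjusted p = 0.115, limma), and Cox7a2l, a related protein of respiratory supercomplexes, by -0.09. Cox6b2, a testis isoform, read 6.98, 6.81 and 5.69 in sham kidney, against 4.97, 4.97 and 4.62 in sham liver, higher by 1.64 (adjusted p = 0.0165, limma), where Cox6b1 was higher by 0.61. Cox6a2, another heart and muscle isoform, was low in both organs, at 4.63, 4.21 and 3.71 in sham kidney, against 2.71, 2.87 and 2.78 in sham liver near the floor, at least 2.64-fold higher in sham kidney. Its partner Cox6a1 was higher by 0.49.

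Cox8a, the isoform of most tissues, was higher by 1.36. Its heart and muscle counterpart Cox8b lay less than 1 above the floor on 16 of the 18 arrays and read 9.06 on array A of 24 h kidney and 5.54 on array A of sham kidney. The mean level of 5 genes from a list on uncoupling of the chain also spread widely in these groups. It ran from 8.80 to 10.53 in 24 h kidney and from 8.89 to 10.16 in sham kidney, against 8.76 to 8.84 in 48 h kidney. The reason for these spreads was not tested. Cox4i1 was higher in sham kidney by 0.53 and Ndufa4 by 0.56. Among the genes for subunit c of ATP synthase, Atp5g2 was higher by 0.50, while Atp5g1 and Atp5g3 differed by 0.37 and 0.17 without passing the test.

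Other members far apart between the organs were Ndufaf5 (1.21), Cycs (1.17), Uqcrc2 (1.17) and Ndufs1 (1.17), all higher in sham kidney. Cycs averaged 15.27 ± 0.06 in sham kidney and 14.09 ± 0.34 in sham liver, and Ndufs1 12.64 ± 0.01 in sham kidney and 11.48 ± 0.06 in sham liver (SD, n = 3 each). Of complex II, Sdhc (0.60), Sdhb (0.52) and Sdha (0.43) were higher, and Sdhd differed by 0.38 without passing the test. Ndufaf1 was the member lower in sham kidney, with a difference of -0.53 (adjusted p = 0.00617, limma).

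Against sham, none of the tissue-restricted isoforms of complex IV that were tested passed within an organ. Cox4i2, Cox7b2, Cox8c and Ndufa4l2 read too low to enter the tests. Cox6a2 read 2.87, 2.88 and 2.87 in 48 h GalN kidney, near the floor, against 4.63, 4.21 and 3.71 in sham kidney. The groups did not overlap, and the change against sham did not pass the test (adjusted p = 0.059, limma). In liver Cox6a2 read 2.71 to 2.87 on all 9 arrays, near the floor. Cox7a1 averaged 8.96 ± 0.69 in 24 h GalN kidney and 8.44 ± 0.27 in 48 h GalN kidney, against 9.27 ± 0.16 in sham kidney (SD, n = 3 each), and neither difference passed.

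Genes that feed or build the chain were read from lists beside the members, and each list's share called in liver at 24 h stands against the 32.9% of all genes. Of 18 genes of the TCA cycle and pyruvate dehydrogenase, 7 were lower and 0 higher in liver at 24 h (38.9%), with a median of -0.46. Those with the largest falls were Dlat, a core enzyme of pyruvate dehydrogenase (-1.53), Fh1, fumarase (-1.16), and Idh3g, a subunit of isocitrate dehydrogenase (-0.94). At 48 h 3 were lower in liver (Pdha1, Pcx and Cs) with all arrays (16.7%, against 10.2% of all genes called) and 3 without array C (13.3% of all genes called). In kidney 1 was lower at 24 h (Mdh2, -0.31), or 5.56%, near the 5.31% of all genes called. At 48 h 2 were lower in kidney (Dlat, -0.80, and Pdhx, -0.58) and 1 was higher (Pcx, 0.55), or 16.7%, against 2.69% of all genes. Between the sham organs 13 were higher and 1 lower in kidney (77.8%, against 47.6% of all genes), with a median of 0.80.

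Of 36 assembly factors outside the name rule, 2 were higher and 8 lower in liver at 24 h (27.8%, with 4 and 13 without array C of the 48 h group), with Coa7 (-1.42), Sco2 (-1.41) and Ecsit (-1.39) lowest. Of 16 genes that copy, transcribe or package mitochondrial DNA or code proteases and chaperones of the matrix (Lonp1, Clpp and Clpx), 6 were higher and 3 lower (56.2%), with a median of 0.51. The largest changes were those of Polg2, the accessory subunit of the mitochondrial DNA polymerase (-2.41), Tefm (1.57) and Top1mt (-1.31). Of 14 regulators of mitochondrial biogenesis, 7 were higher and 5 lower (85.7%): Ppargc1b, a coactivator of respiratory genes, changed by -3.26, and the related Pprc1 by 2.95. At 48 h Ppargc1b was the 1 regulator called in liver (-2.72), or 7.14%, against 10.2% of all genes. Of the 16 genes above, Ssbp1 (0.92) and Tfam (0.48), which packages and transcribes mitochondrial DNA, were then higher in liver (12.5%). In kidney 2 of the 36 assembly factors were lower at 24 h (Coa7, -0.98, and Acad9, -0.51), or 5.56%, near the 5.31% of all genes called. At 48 h 2 were lower in kidney (Uqcc1, -0.72, and Acad9, -0.59), or 5.56%, against 2.69% of all genes. In kidney at 24 h Tfam changed by -0.83, the 1 gene called of the 16 (6.25%). Of the 14 regulators, Gabpa, a subunit of GABP, then changed by -0.68 and Esrrb, an estrogen-related receptor, by 1.32 (14.3%).

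Of the further lists in liver at 24 h, 3 mitochondrial import and chaperone genes were higher and 1 lower of 19 (21.1%, with 5 and 2 without array C of the 48 h group), and 3 glycolysis genes were higher and 4 lower of 16 (43.8%, with 3 and 2 without it). In kidney at 48 h, 2 import genes were lower (10.5%, against 2.69% of all genes called) and 0 glycolysis genes were called. Of 7 genes for the ATP/ADP and phosphate carriers (Slc25a3, Slc25a4 and Slc25a5), the outer membrane channels Vdac1, Vdac2 and Vdac3 and the mitochondrial creatine kinase Ckmt1, 1 was lower in liver at 24 h (Slc25a5, -0.58), 1 was higher at 48 h (Slc25a4, 1.45), and 7 of 7 were higher in sham kidney than in sham liver. These shares were 14.3%, 14.3% and 100%, against 32.9%, 10.2% and 47.6% of all genes called. Cyc1, the cytochrome c1 gene of complex III that the name rule leaves out, passed no test against sham and was higher in sham kidney than in sham liver by 0.49.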

How the data were processed

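The submitters' value table was used as deposited: log2 values from Affymetrix whole-genome mouse arrays that the authors made with GCRMA, per the submitters' processing notes (version not given in the sources used here), with each array taken as 1 animal. Of 45101 probe sets, 64 are controls, 34945 carry 1 gene in the platform annotation, 932 several and 9224 none. Each gene was read from its probe set with 1 gene and the highest mean over the 18 arrays. All 91 members were found in RefSeq.

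Genes above the array's median on at least 3 arrays were tested with limma 3.58.1 (R 4.3.3), with a variance trend, in 1 fit of 9 arrays per organ, and in 1 fit of 18 arrays between organs. A call is a Benjamini-Hochberg adjusted p under 0.05 over all genes tested. The steps were tested on simulated data with independent noise and planted changes larger than most of those called here. That run held no array standing apart and does not measure the power for small changes. Values less than 1 above the lowest value, 2.213, count as near the floor, and a fold against them is a lower bound.

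Named genes were up to 8 called per direction against sham, up to 5 between times, and up to 8 between shams, with complex II, Cycs and isoforms always included. Genes called only without array C of 48 h liver were named after that array was seen to stand apart. The members and lists were chosen with earlier results of these data known. Alternatives covered filters, scaling, probe sets, samples, variance model and test.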

Additional observations from a re-analysis of the deposited data

Results flagged for a closer look

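For 8 results the change with GalN differed between the organs by a direct test (kidney change minus liver change, limma, adjusted over all genes tested). At 24 h these were Ndufs7 (0.9227), Ndufaf3 (0.7328) and Ndufaf4 (-0.9673). At 48 h they were Sdha (0.823), Ndufa10 (0.8208), Ndufaf3 (-1.194), Cycs (-0.838) and Ndufs7 (-0.726), and without array C of 48 h liver they were 0.93, 0.78, -1.27, -0.68 and -0.55, in the same order. The calls of Ndufs7 and Ndufaf4 at 24 h and of Sdha, Ndufa10 and Ndufaf3 at 48 h were kept in all 18 fits that left out 1 array, while a second, low-reading probe set for Ndufa10 gave -0.3479. Those of Ndufaf3 at 24 h, Cycs at 48 h and Ndufs7 at 48 h were kept in 8, 15 and 11 of 18. For Ndufaf3 the differences had opposite signs at the 2 times: it changed by -0.35 in liver at 24 h, which did not pass the test, and by 1.08 in liver at 48 h. Genes near the floor on all arrays of an organ were left out here, since no response could be measured in that organ.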

How the results depend on the processing

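Counts of called members were compared with those of the report, which were 5 in liver at 24 h, 3 in liver at 48 h, 10 in liver between times, 7 in kidney at 24 h, 4 in kidney at 48 h, 1 in kidney between times, 3 and 6 for the organ difference at 24 h and 48 h, and 49 between shams. Leaving out 1 array gave 2 to 12, 2 to 25, 5 to 36, 0 to 8, 1 to 6, 0 to 1, 2 to 12, 4 to 22 and 38 to 61, in that order. In these fits 23.6% to 38.8%, 3.73% to 13.3% and 21.5% to 28.9% of all genes were called in the liver comparisons. In kidney the shares were 0.125% to 5.6%, 0.242% to 3.92% and 0.00836% to 1.36%. For the organ differences and the shams they were 25.5% to 35.8%, 9.16% to 16.8% and 42.7% to 51.7%. Array weights gave 25, 48, 38, 11, 14, 2, 17 and 41 for all but the shams (29.8%, 57.1%, 45.2%, 12.8%, 16.3%, 2.33%, 19.8% and 47.7% of the members), where 49%, 39.2%, 38%, 7.65%, 10.4%, 2.03%, 42.6% and 36.4% of all genes were called. With no filter, liver at 24 h gave 3, kidney at 24 h 3, kidney at 48 h 2 and kidney between times 0 (17.9%, 1.57%, 0.72% and 0.352% of all genes). The mean of probe sets gave 8 in liver at 24 h, 1 in liver at 48 h, 4 in kidney at 24 h and 3 for the organ difference at 48 h (32.7%, 8.69%, 4.71% and 12.5% of all genes). Quantile normalization gave 8 in liver at 24 h, 19 in liver between times, 3 in kidney at 24 h and 2 in kidney between times (33.7%, 29.3%, 5.05% and 2.09% of all genes), and 75th percentile scaling gave 12 between shams (60% of all genes). Fitting all 18 arrays gave 14, 18 and 26 in liver and 0 and 1 in kidney at 24 h and 48 h (43.9%, 20.8%, 39.3%, 3.13% and 1.67% of all genes). Fitting only the arrays compared gave 9 in liver at 24 h, 3 in liver between times, 0 in kidney at 24 h, 0 in kidney between times and 6 for the organ difference at 24 h (35%, 21.1%, 0.65%, 0.158% and 32.2% of all genes). Without assembly factors the counts were 3 in liver at 24 h and 1 in kidney at 48 h. The rank product gave 0, 0, 0 and 1 against sham in liver at 24 h and 48 h and kidney at 24 h and 48 h (4.86%, 2.36%, 1.37% and 1.78% of all genes). Without array C of 48 h liver and with quantile normalization or 75th percentile scaling, both chosen after seeing the data, liver at 48 h gave 20 and 40, liver between times 44 and 36, and the organ difference at 48 h 21 and 35 (12% and 13.3%, 29.6% and 29.4%, and 15.2% and 16.2% of all genes). The cause was not tested.

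With the array letter as a replicate block the counts were 2 in liver at 24 h, 2 in kidney at 24 h, 1 in kidney at 48 h and 0 in kidney between times (27.9%, 1.19%, 0.408% and 0.0333% of all genes). In no pair of groups were all 3 correlations of deviations between equal letters over 0.1, and for sham liver with sham kidney they were 0.297, 0.041 and 0.32. These values cannot settle whether equal letters mark the same mouse, and the main tests used no pairing.

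Directions turned in 14 of 2414 alternatives over 88 called gene results. Between shams, 75th percentile scaling gave Atp5h -0.03647, Ndufa10 -0.01132, Ndufs3 -0.07149 and Uqcrc1 -0.002983, and other probe sets gave Atp5a1 -0.1346, Ndufa3 -0.008546, Ndufab1 -0.02418 and -0.265, and Ndufs8 -0.01448. Other probe sets also gave Ndufaf4 in liver at 24 h -0.07912, Ndufa10 in liver between times 0.02782 and for the organ difference at 48 h -0.3479, and in kidney at 24 h Atp5pb 0.02765 and Ndufc2 0.05101. Another 409 alternatives lost the call and 1991 kept it. Of the 19 calls against sham, 5 were kept in every fit that left out 1 array: Ndufs7 and Ndufs1 in liver at 24 h, Sdha and Ndufaf3 in liver at 48 h, and Cycs in kidney at 48 h. Near the floor, small differences cannot be read, and 3 arrays a group limit the precision.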
